A study of Brassica oleracea with 7 samples.

Results

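The genes described here were low in leaf and present in every other tissue sampled from Brassica oleracea, the species that includes cabbage. A gene was a member if, in each of the 6 other tissues, its FPKM plus 1 was at least 4 times that in leaf. FPKM counts sequenced fragments per kilobase of gene model, relative to how many fragments of that library were mapped. Of 39481 genes in the deposited table, 54 met this rule, or 0.137%. A gene needs at least 3 FPKM in all 6 other tissues to be able to meet it, and of the 10780 genes that had this, the 54 were 0.501%. The levels in leaf and the lowest of the other levels chose the members, so these values are given as a description with no test.

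Poly(A)+ RNA of 7 tissues was sequenced, with 1 library for each. Leaf came from greenhouse plants of 7 weeks, kept at 15 to 25 °C, and root and stem from plants of the same age. The other organs were flower buds of 0.8 cm, flowers that opened on the same day, and siliques, the seed pods of this family, collected 15 days after pollination. Callus, an unorganised mass of dividing cells, was grown in tissue culture at 25 °C. The labels do not give the number of plants behind a library, or a genotype, so no difference below has a replicate check and each one is between these libraries. In whole organs, fewer cells of a type and less RNA per cell cannot be told apart.

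As background, a grown leaf is the main photosynthetic organ, most of its cells no longer divide or expand, and a large part of its messenger RNA encodes chloroplast proteins. Buds, young siliques and callus hold many dividing or expanding cells, stem and root hold conducting and supporting tissue, and root and callus have few or no working chloroplasts. FPKM is a share of a library, so it gives the place of a transcript among all others in a tissue and not its number per cell. The deposited table pairs no gene ID with a name, and 0 of the IDs matched the 53125 genes of the RefSeq table for the species. Genes are therefore given by ID and locus, their functions are not known here, and the tissue labels could not be checked against marker genes. The fragments implied by the deposited intervals came to 10594589 in gene models for leaf, against 8458621 (flower) to 10597573 (root) for the others. Leaf was thus among the libraries with the most fragments in gene models. The totals by which the columns were divided lay closer together, from 12419275 (callus) to 13849903 (silique), with 13793781 for leaf.

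The members ranged from undetected to moderate in leaf and were mostly well expressed elsewhere. Their median level was 1.03 FPKM in leaf, against 17.4 FPKM in bud, 27.3 FPKM in silique, 34.2 FPKM in root, 35.1 FPKM in stem, 37.8 FPKM in callus and 41.1 FPKM in flower. Over the 10780 genes that could have met the rule, the median was 17.9 FPKM in leaf and 14.1 FPKM (root) to 20.7 FPKM (callus) elsewhere. In leaf, 4 members were listed at 0, 23 were above 0 and under 1 FPKM, 22 were at 1 to under 5 FPKM and 5 were at 5 FPKM or more. Outside leaf, 31 of the 54 (57.4%) reached 100 FPKM in some tissue, as did 17.1% of the genes that could have met the rule. Among all genes detected at 1 FPKM in any tissue, the typical member stood at the 25.7th percentile in leaf and at the 89.2nd percentile by its median over the other tissues.

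Together the members made up 0.0183% of the summed FPKM of leaf. They made up 0.282% in bud, 0.395% in silique, 0.504% in stem, 0.653% in callus, 0.792% in root and 1.39% in flower. The flower share leaned on few genes, because Bol012996 alone supplied 28.6% of the members' summed FPKM there.

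**Figure D1:**
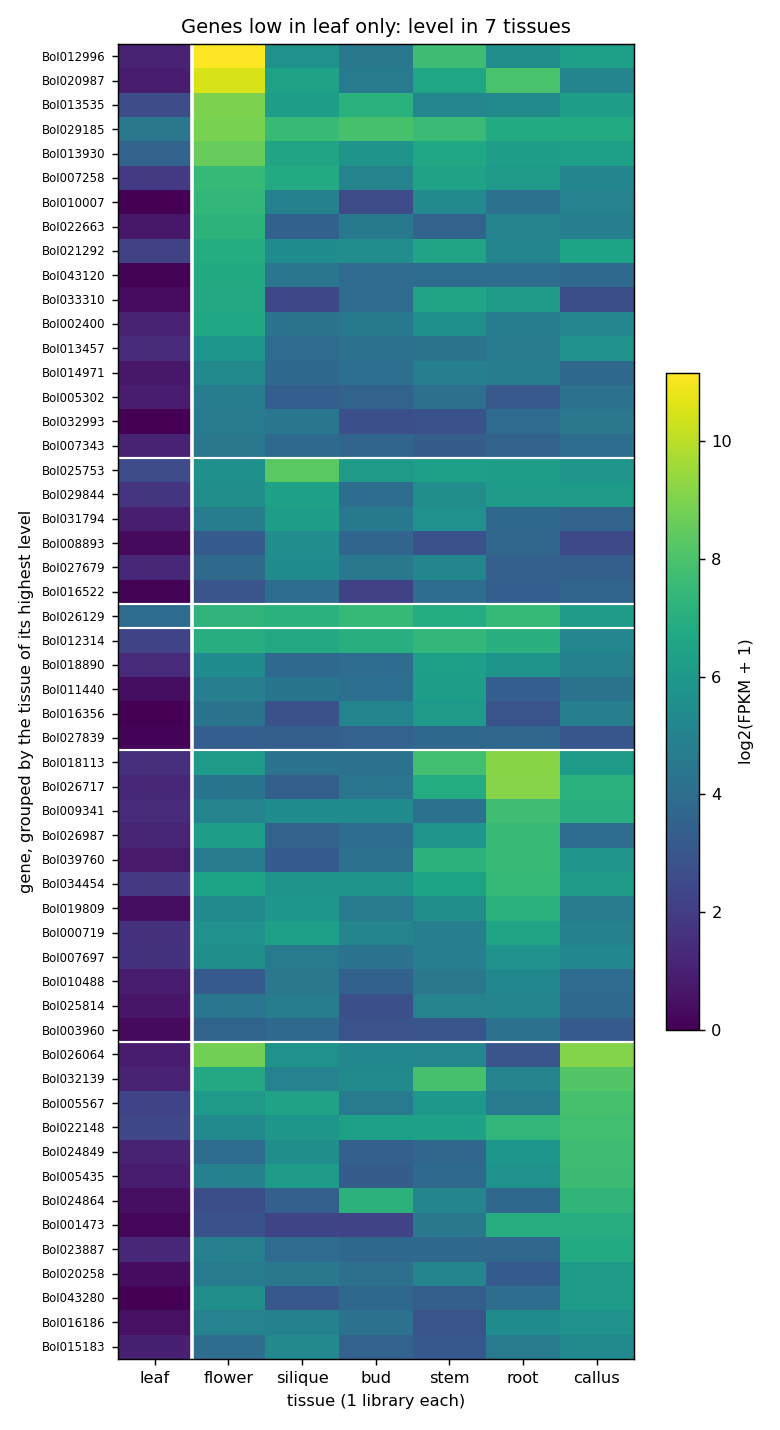
Level of each of the 54 genes (rows) in the 7 tissues (columns, 1 library each) as log2(FPKM + 1), with rows grouped by the tissue of the highest level and, within a group, sorted by that level. The leaf column is dark throughout, while the brightest cells lie in flower (2289 FPKM for Bol012996), root and callus.

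On the log2(FPKM + 1) scale the median difference between leaf and another tissue, over the members, was smallest against bud, at -3.39. It was -3.73 against silique, -3.92 against stem, -3.95 against root and -4.18 against both callus and flower. For the genes that could have met the rule the same medians lay between -0.14 (callus) and 0.37 (root). Against the lowest other tissue, the members' median difference was -2.54. This scale understates the difference of genes near 0. With a pseudocount of 0.1 in place of 1, the members' medians ran from -4.19 (bud) to -5.18 (root), and the rule called 337 genes, the 54 among them.

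The depth behind the low leaf values was limited. The median member rested on 11 fragments in leaf, 12 members on 3 fragments or fewer and 14 on 4 to 10, while no value of a member outside leaf rested on fewer than 13. At the level of its lowest other tissue, the median of the 53 members with a known coding length would have held 160 fragments in leaf, with a range of 13 to 1260. For each of the 54 the upper bound of the deposited interval in leaf lay below the lower bounds in all other tissues, as it did for 586 of the 10780 genes (5.44%). The rule works on the same values and largely fixes this, and the 4 genes listed at 0 have a deposited interval of 0 to 0, which understates their error. For 28 of the 54 the 4-fold limit was still met when the leaf upper bound was set against the lowest of the other lower bounds. These include Bol043280, Bol016356 and Bol032993, all listed at 0 in leaf. Their place among the 28 rests on that leaf upper bound of 0, which understates their error.

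**Figure D2:**
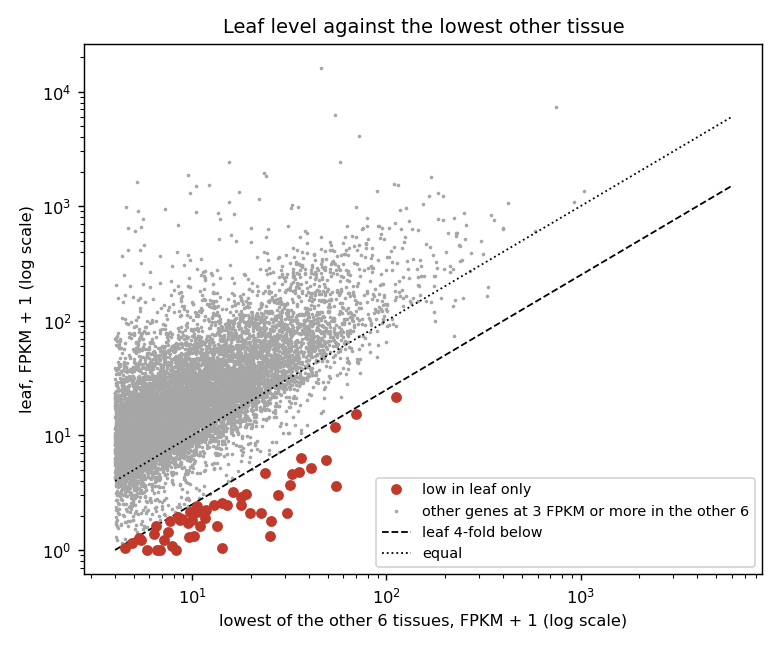
Leaf level (vertical, FPKM + 1, log scale) against the lowest level in the other 6 tissues (horizontal, FPKM + 1, log scale), for the 54 genes (large points) and all other genes at 3 FPKM or more in those tissues (small points). The members lie on or under the dashed 4-fold line and thin out downwards, with 17 between 4-fold and 5-fold and 5 at 12-fold or more.

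Bol019809 (Scaffold000128, 720300 to 731880) had the largest drop on the FPKM + 1 scale. It was at 0.336 FPKM in leaf (deposited interval 0.0354 to 0.636, on 5 fragments), against 24.1 FPKM in bud, 38.6 FPKM in flower, 57.3 FPKM in silique, 44.3 FPKM in stem, 137 FPKM in root and 24.2 FPKM in callus. Leaf stood far below the rest and root far above, while bud and callus, the next lowest, were level with each other. The difference from bud was -4.23 on the log2(FPKM + 1) scale, with -4.74 to -3.78 from the interval bounds. At the bud level leaf would have held 359 fragments. The place depends on the pseudocount, because with 0.1 in place of 1, Bol019809 came 5th at -5.79, behind Bol043120 at -6.47 and 3 genes listed at 0 in leaf.

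Bol034454 (Scaffold000039, 1506736 to 1508073) was the next on the FPKM + 1 scale and 13th with a pseudocount of 0.1. It was at 2.61 FPKM in leaf (1.41 to 3.81), against 54.1 FPKM in bud, 87.1 FPKM in flower, 53.9 FPKM in silique, 86.8 FPKM in stem, 176 FPKM in root and 72.0 FPKM in callus. Its levels outside leaf lay within 3.23-fold of each other on the FPKM + 1 scale, so this gene was high everywhere but in leaf. The difference from silique, its lowest other tissue, was -3.93 (-4.64 to -3.36).

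No fragment of 4 members was counted in leaf. Bol016356 (Scaffold000156_P2, 388221 to 388898) was listed at 0 there, where 3 fragments would have been 0.390 FPKM. It was at 31.8 FPKM in bud, 18.7 FPKM in flower, 5.82 FPKM in silique, 65.4 FPKM in stem, 6.55 FPKM in root and 26.0 FPKM in callus. Leaf was thus at least 10.5-fold lower than silique, the lowest of these, counted from the lower bound of the silique interval (4.09 FPKM) as for the other 3 genes. Bol010007 (Scaffold000226, 118277 to 118849) was also listed at 0, with a floor of 1.098 FPKM because its coding sequence is only 198 bp. It was at 4.81 FPKM in bud, 167 FPKM in flower, 29.2 FPKM in silique, 37.8 FPKM in stem, 17.3 FPKM in root and 29.7 FPKM in callus, which puts leaf at least 1.95-fold below the lower bound in bud (2.14 FPKM, on 13 fragments). Bol032993 was at least 12.1-fold lower in leaf than in bud, its lowest other tissue at 5.55 FPKM. Bol043280 was at least 4.19-fold lower in leaf than in silique, its lowest other tissue at 7.25 FPKM. With these floors counted per library, absence from leaf cannot be told from a low level.

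At the other end, 5 members were still plainly present in leaf. Bol029185 (Scaffold000067, 845994 to 851163) was the highest there, at 20.8 FPKM (17.2 to 24.4, on 135 fragments). It was at 242 FPKM in bud, 476 FPKM in flower, 187 FPKM in silique, 196 FPKM in stem, 112 FPKM in root and 111 FPKM in callus. Bol026129 (Scaffold000084, 461513 to 462595) was at 14.3 FPKM in leaf (11.7 to 17.0), against 180 FPKM in bud, 149.98 FPKM in flower, 139 FPKM in silique, 117 FPKM in stem, 175 FPKM in root and 68.3 FPKM in callus. These also had the highest medians outside leaf of all members, so their leaf level is low only beside their own level elsewhere. Callus was the lowest other tissue of each, and the leaf minus callus difference was -2.36 (-2.72 to -2.02) for Bol029185 and -2.18 (-2.57 to -1.82) for Bol026129.

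The limit fell in a run of values with no gap. Just inside, Bol025814 was 4.05-fold lower in leaf than in its lowest other tissue on the FPKM + 1 scale, with 0.607 FPKM in leaf and 5.51 FPKM in bud. Bol033310 was 4.21-fold lower, with 0.264 FPKM in leaf and 4.32 FPKM in silique. Just outside, Bol012790 was 3.98-fold lower, with 2.101 FPKM in leaf and 11.3 FPKM in root, and Bol039157 was also 3.98-fold lower, with 4.12 FPKM in leaf and 19.4 FPKM in silique. There were 17 genes from 4-fold to under 5-fold and 26 from 3.5-fold to under 4-fold. A 2-fold limit gave 319 genes and an 8-fold limit 11.

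Above the shared low in leaf the members differed widely in where they peaked, and on the deposited scaling flower was the tissue of the highest level most often. It held the highest level of 17 members, callus of 13, root of 12, silique of 6, stem of 5 and bud of 1. The choice of members used the lowest of these 6 levels and not which tissue was highest, but 1 library for each allows no test of the order.

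The 17 members highest in flower reached 20.6 to 2289 FPKM there, against 0 to 20.8 FPKM in leaf, with a median log2(FPKM + 1) difference of -5.58. Of these, 5 were also at least 4-fold higher in flower than in every other tissue, namely Bol012996, Bol020987, Bol043120, Bol022663 and Bol010007. They were 9.26% of the members. By the same limit, 35 of the 10780 genes that could have met the rule (0.325%) were enriched in flower. Leaf is among the tissues this limit compares, and the rule already places it low in every member. The difference between these shares is thus partly fixed by the rule. Bol012996 (Scaffold000191, 414286 to 415939) was at 1.12 FPKM in leaf (0.541 to 1.70, on 15 fragments), against 21.5 FPKM in bud, 2289 FPKM in flower, 51.8 FPKM in silique, 206 FPKM in stem, 44.5 FPKM in root and 78.6 FPKM in callus. Flower stood far above stem, the next tissue, and the other tissues lay between leaf and stem. Bol020987 was at 0.794 FPKM in leaf, against 24.3 FPKM in bud, 1439.7 FPKM in flower, 84.5 FPKM in silique, 92.7 FPKM in stem, 247 FPKM in root and 32.6 FPKM in callus. Both were lowest in bud after leaf, so bud and open flower stood far apart for them.

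Bol043120 was flat outside leaf and flower. It was at 0.0491 FPKM in leaf, on 1 fragment, against 14.1 FPKM in bud, 110 FPKM in flower, 20.2 FPKM in silique, 14.6 FPKM in stem, 15.0 FPKM in root and 13.1 FPKM in callus. At the callus level leaf would have held 268 fragments. Bol022663 was at 0.636 FPKM in leaf, on 4 fragments, against 22.2 FPKM in bud, 147 FPKM in flower, 9.98 FPKM in silique, 10.6 FPKM in stem, 30.9 FPKM in root and 27.5 FPKM in callus. Besides flower, root and callus stood highest here, and silique and stem lowest.

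The 12 members highest in root reached 17.6 to 583 FPKM there, against 0.230 to 2.61 FPKM in leaf, with a median difference of -6.01. Bol018113 (Scaffold000141, 519101 to 520055) had the highest root level. It was at 1.90 FPKM in leaf (1.07 to 2.73), against 16.7 FPKM in bud, 66.4 FPKM in flower, 17.8 FPKM in silique, 217 FPKM in stem, 583 FPKM in root and 66.7 FPKM in callus. Root and stem stood above the rest, and bud and silique were the lowest after leaf. Bol026717 was the only member at least 4-fold higher in root than in any other tissue (1.85% of the members), and it lay close to that limit. By the same limit, 65 of the 10780 genes that could have met the rule (0.603%) were enriched in root. Bol026717 was at 1.402 FPKM in leaf, 560.1 FPKM in root and 139 FPKM in callus, with 9.55 to 116 FPKM in the remaining tissues.

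The 13 members highest in callus reached 39.3 to 544 FPKM there, against 0 to 4.22 FPKM in leaf, with a median difference of -6.07. Bol026064 (Scaffold000085, 1630519 to 1634783), which has the longest coding sequence of the members at 2169 bp, led them. It was at 0.802 FPKM in leaf (0.475 to 1.13, on 24 fragments), against 36.2 FPKM in bud, 439 FPKM in flower, 51.0 FPKM in silique, 35.0 FPKM in stem, 6.67 FPKM in root and 544 FPKM in callus. Callus and flower stood together at the top, and root was the lowest after leaf. None of the 13 was 4-fold higher in callus than in every other tissue. Of the 10780 genes that could have met the rule, 27 were (0.250%), too small a share for the absence here to set the members apart. The number peaking in callus rested on the scaling of the columns. It was 24.1% of the members as deposited, 9.26% after rescaling by trimmed means and 11.1% after rescaling to equal upper quartiles, under each of which 33.3% peaked in root.

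Silique, stem and bud led fewer members. Bol025753 (Scaffold000086, 1651567 to 1652183), with a coding length of 198 bp, was at 5.13 FPKM in leaf (2.39 to 7.87), against 64.0 FPKM in bud, 47.8 FPKM in flower, 311 FPKM in silique, 77.4 FPKM in stem, 73.8 FPKM in root and 54.9 FPKM in callus. Bol012314 (Scaffold000200, 684359 to 685933) was at 3.83 FPKM in leaf (2.24 to 5.43), against 127 FPKM in bud, 125 FPKM in flower, 104 FPKM in silique, 167 FPKM in stem, 136 FPKM in root and 34.4 FPKM in callus. For the first, silique stood clear of 5 similar tissues, and for the second, callus stood clear below 5 similar tissues. Bol026129, given above, was the member highest in bud.

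Beside the genes that could have met the rule, the shares of the members differed in both directions, a difference that was not tested. Flower was highest for 31.5% of the members and 14.7% of those genes. Bud was highest for 1.85% of the members and 20.5% of those genes, and root for 22.2% of the members and 14.8% of those genes. Bud was also the lowest of the 6 tissues for 29.6% of the members and 10.1% of those genes, and silique for 24.1% of the members and 6.67% of those genes. Root was lowest for 12.96% of the members and 32.4% of those genes, and flower for 7.41% of the members and 23.4% of those genes. The rule acts on the lowest of the 6 levels, so the shares by lowest tissue are not free of the choice of members. Over the 4 other scalings the share of members highest in flower stayed between 31.5% and 35.2%. Its lead did not, because root equalled it at 33.3% with equal upper quartiles and came close with trimmed means (33.3% against 35.2% in flower). The shares of the genes that could have met the rule were taken on the deposited scaling only. Whether the differences from them hold under other scalings was not tested.

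**Figure D3:**
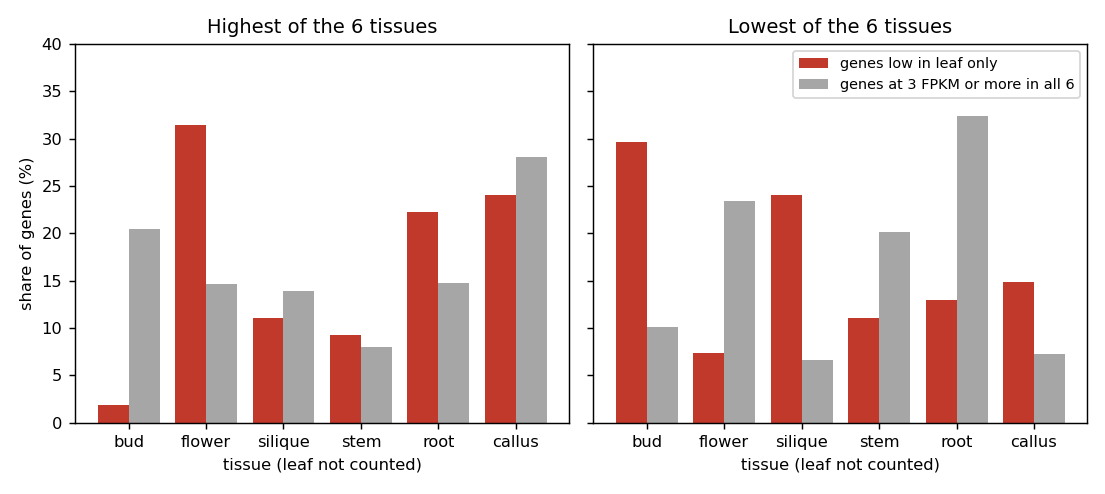
Share of genes (vertical, %) whose highest (left) or lowest (right) level among the 6 tissues other than leaf fell in each tissue, for the 54 genes low in leaf only and for the 10780 genes at 3 FPKM or more in those 6. Among the members, on the deposited scaling, flower was the commonest peak (31.5%) and bud the rarest (1.85%), and bud was most often the lowest tissue (29.6%).

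By their highest and next tissue together, flower with stem was the commonest pair, in 8 members (14.8%) against 3.23% of the genes that could have met the rule. Callus with flower followed in 7 members (12.96% against 10.3%). Callus with root, root with silique, and root with stem each held 6 members (11.1%), against 13.6%, 2.95% and 5.08%. Bud with silique held 0 members, against 12.3% of the genes that could have met the rule.

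Few members were level outside leaf. The highest of the 6 tissues exceeded the lowest by a median of 6.66-fold on the FPKM + 1 scale, against 3.09-fold for the genes that could have met the rule. In log2 units these were 2.73 and 1.63. A wide range was not particular to genes low in leaf. For genes low in 1 other tissue only, by the same rule, the median was 1.75 (silique) to 2.78 (flower). The genes that could have met it had 1.53 (root) to 1.71 (silique). The 6 levels lay within 4-fold of each other for 14 members (25.9%) and for 64.9% of those genes. The most even member was Bol027839 (Scaffold000075, 1557450 to 1558999). It was at 0.0882 FPKM in leaf (0 to 0.265, on 1 fragment), against 10.51 FPKM in bud, 9.06 FPKM in flower, 9.31 FPKM in silique, 12.8 FPKM in stem, 11.9 FPKM in root and 6.86 FPKM in callus. Its range outside leaf was 1.75-fold, and it was the member nearest to a simple pattern of absent in leaf and constant elsewhere. Bol007343 (Scaffold000263, 609228 to 610647) was next, at 1.13 FPKM in leaf and 8.73 FPKM (stem) to 20.6 FPKM (flower) elsewhere, a range of 2.22-fold. Bol012996 and Bol026064 had the widest ranges, 102-fold and 71.1-fold.

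Being low in a single tissue was more common for leaf than for most tissues, but far less common than for root. The same rule with another tissue in place of leaf gave 756 genes low in root only (6.16% of the genes that could have met it), 44 in flower (0.401%), 12 in bud (0.113%), 7 in stem (0.0647%), 6 in callus (0.0568%) and 6 in silique (0.0567%). Leaf was lower than all other tissues for 13.1% of the 10780 genes, flower for 26.3% of its own 10983 and stem for 20.6% of its own 10822. Root was the lowest for 40.8% of its own 12276. On the deposited scaling, flower and stem were thus the lowest tissue more often than leaf, yet fewer genes lay 4-fold below in them. The shares by lowest tissue were not taken under other scalings. Trimmed means shifted leaf by -0.19 on the log2 scale, flower and stem by 0.22 and root by 0.39. The leaf count was 72 after rescaling by trimmed means, with 50 of the 54 among them, and 61 to 65 under the other scalings. The flower count was between 24 and 28 under 3 of the 4 other scalings. The callus count was 17 with trimmed means and 16 with equal upper quartiles, above the 13 and 15 of bud, so the order of the smaller counts is not settled.

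**Figure D4:**
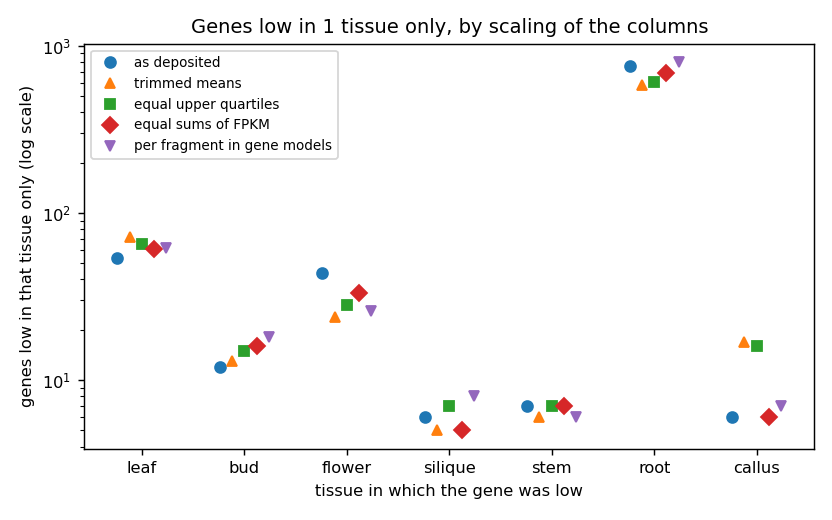
Number of genes (vertical, log scale) at least 4-fold below every other tissue in the tissue named on the horizontal axis, on the deposited columns and after 4 rescalings. Leaf stays between 54 and 72 genes, root between 579 and 796, and the other tissues at 44 or fewer.

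How low the genes lay also varied between these groups. The 54 members were at a median of 1.03 FPKM in leaf, and 27 of them were under 1 FPKM there. The 44 genes low in flower only were at 2.79 FPKM in flower, with 22.7% under 1 FPKM. The 756 genes low in root only were at 0.514 FPKM in root, with 64.7% under 1 FPKM.

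Root set the boundary of the group. If root was not required to be high, 163 more genes met the rule, against 37 without silique, 23 without bud, 14 without stem, 10 without flower and 8 without callus. The 163 were at a median of 0.455 FPKM in root, and 103 of them were no higher there than in leaf. Genes that missed the rule through root alone were thus more numerous than the 54 members. The genes that each of these settings makes eligible were not counted. Root was also the lowest of the 7 tissues for 40.8% of the 12276 genes at 3 FPKM or more in the other 6. On the deposited scaling, low root levels were thus common in this library beyond these genes.

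Many members had short coding sequences. Their implied coding length had a median of 717 bp (quartiles 558 and 1116 bp, 53 genes with a value), against 1092 bp (681 and 1629 bp, 10571 genes). At 5 FPKM or more in all 6 other tissues the medians were 759 bp for 48 members and 1053 bp for 7723 genes. At 10 FPKM or more they were 850.5 bp for 28 members and 981 bp for 4291 genes, a setting added after the data were seen. The genes low in root only had a median of 816 bp and those low in flower only 960 bp. None of these 53 members had a coding length within 0.2% of its locus, and 4 of the 10780 genes had. This limit is strict, so it does not count the genes without introns. Bol033310 missed it with a coding length of 1371 bp in a locus of 1397 bp. Coding sequence took a median of 56.8% of the locus in members and 53.6% in those genes.

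**Figure D5:**
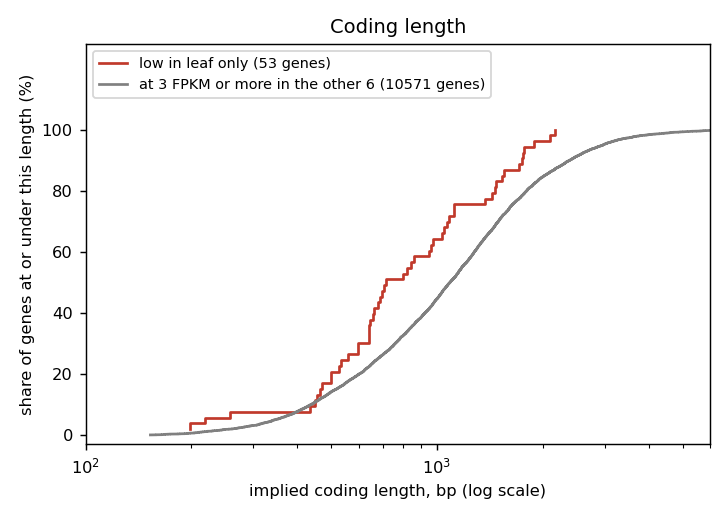
Cumulative share of genes (vertical, %) by implied coding length (horizontal, bp, log scale) for the 53 members with a value and the 10571 genes at 3 FPKM or more in the other 6 tissues with a value. The members' curve lies to the left over most of its course, with medians of 717 and 1092 bp.

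The members were scattered over the genome. They lay on 52 scaffolds, none was next to another member among the rows of the table, and the 2 pairs that shared a scaffold had 78 and 232 rows between them. Of 105 neighbouring rows, 30 were at 3 FPKM or more in all 6 other tissues. In 26 of these the locus did not overlap the member, and 1 of the 26 was lower in leaf than in every other tissue, by at least 2-fold on the FPKM + 1 scale. Among all genes that could have met the rule and were not members, 12.6% were lower in leaf than elsewhere and 1.63% by at least 2-fold.

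Some overlapping loci shared the pattern. The locus of 6 members (11.1%) overlapped that of another gene, as did 9.05% of the genes that could have met the rule. Of the 6 partners, 4 were at 3 FPKM or more in all other tissues, and 3 of these 4 were also at least 2-fold lower in leaf than elsewhere, beside the 1.63% above. Bol024863, which overlaps Bol024864, was at 0.185 FPKM in leaf, against 80.3 FPKM in bud, 3.61 FPKM in flower, 4.22 FPKM in silique, 18.4 FPKM in stem, 8.39 FPKM in root and 70.4 FPKM in callus. Bol024864 itself was at 0.390 FPKM in leaf, against 143 FPKM in bud, 5.32 FPKM in flower, 9.64 FPKM in silique, 33.3 FPKM in stem, 12.4 FPKM in root and 157 FPKM in callus. The order of the 7 tissues was nearly the same in both, with callus and bud exchanged at the top. Bol027680, which overlaps Bol027679, was at 2.36 FPKM in leaf and 9.81 to 85.3 FPKM elsewhere. Bol029186, which overlaps Bol029185, was at 7.12 FPKM in leaf and 16.9 to 747 FPKM elsewhere. The protocols in the labels name no step that keeps the strand, so reads from a stretch that overlapping loci share cannot be told apart. The gap to the partner, negative where loci overlap, was -4423 bp for Bol024864, whose locus spans 4474 bp. It was -1100 bp for Bol027679 (12241 bp) and -136 bp for Bol029185 (5170 bp). The shared stretch was thus nearly all of the first locus and a small part of the other loci. Without the 6 genes, 48 members remain.

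Genes outside the group with the most similar pattern fell short of the 4-fold limit, which the rule fixes for every non-member. Pearson's correlation of log2(FPKM + 1) with the members' median profile over the 7 tissues, a description in which 1 low point in leaf weighs heavily, was 0.967 for Bol030458 and 0.949 for Bol021792. Bol030458 was at 0.875 FPKM in leaf and 5.02 FPKM (bud) to 8.11 FPKM (silique) elsewhere, a drop of 3.21-fold on the FPKM + 1 scale. Bol021792 was at 5.84 FPKM in leaf and 23.9 FPKM (bud) to 62.4 FPKM (stem) elsewhere, a drop of 3.63-fold. In all, 22 genes outside the group correlated above 0.9. The members' own correlations with that profile, which was taken from them, ran from 0.575 (Bol024864) to 0.973 (Bol007697), with a median of 0.865.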

How the data were processed

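The authors deposited one table for the series with FPKM per gene and tissue and a lower and an upper bound on the same scale, per the file headers. The submitters' processing notes list TopHat 1.0.13. The quantification program, genome build, annotation and treatment of reads that map to several genes were not given in the sources used here, and positions are those of the deposited table, with starts raised by 1.

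From these values, the rule for members was applied, levels were summarised over members beside all genes at 3 FPKM or more in the 6 other tissues, and differences were taken as leaf minus the other tissue on log2(FPKM + 1). With 1 library per tissue no test was run. The width from FPKM up to its bound was taken to be 2 standard deviations of a fragment count, which implies the fragments behind a value. Of 215412 values above 0, 88.8% were whole within 0.02 or, for large counts, within the rounding of the file. Outside bud, loci taken to have a single exon then gave the fragments each column was divided by. These gave coding lengths, of which 98.3% of those under 3 kb were multiples of 3. In bud only 18 loci shared the commonest value, so its divisor came from coding lengths implied by the other columns. Intronless meant a coding length within 0.2% of the locus. Intervals and floors of 3 fragments cover counting error only.

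Members, lists and settings were chosen with earlier results of these data known. The IDs named are the members with the largest drops, the highest medians outside leaf, the highest leaf levels, the smallest and largest ranges outside leaf, the highest level in each tissue, those at 0 in leaf, the longest and shortest coding lengths, the nearest to the limit on either side and the 2 genes most alike. Other IDs were chosen after their values were seen. The steps were tested on simulated counts. Alternatives were other pseudocounts, limits, scalings, interval bounds, filters and tissues. Python 3.11.15, pandas 2.3.3, numpy 2.4.6, scipy 1.17.1 and matplotlib 3.10.9 were used.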

Additional observations from a re-analysis of the deposited data

How the results depend on the processing

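No paired analysis was possible because no tissue was sequenced more than once, and for the same reason no replicate could be left out. Against 54 genes low in leaf only, a pseudocount of 0.1 gave 337, one of 0.5 gave 105, a 2-fold limit 319 and an 8-fold limit 11. Interval bounds in place of point values gave 28, with an upper bound of 0 for genes listed at 0 in leaf. A minimum of 10 FPKM in the other tissues also gave 28. The count was 91 without silique and 217 without root. It was 26 for genes whose implied fragments were whole in every tissue, a setting added once the data had been seen, like scaling per fragment in gene models and the ranking of all members with other pseudocounts. The share of members highest in bud was 0% with equal sums of FPKM and 0% per fragment in gene models. The share highest in callus was 9.26% with trimmed means and 11.1% with equal upper quartiles. The members' median log2 differences with a pseudocount of 0.1 were -4.19 (leaf minus bud), -5.01 (flower), -4.72 (silique), -5.13 (stem), -5.18 (root) and -5.13 (callus). With 0.5 they were -3.60 (bud), -4.17 (silique), -4.58 (root) and -4.58 (callus). Genes low in flower only were 24 with trimmed means, 28 with equal upper quartiles and 26 per fragment, and those low in callus only were 17 and 16 with the first 2 of these. The cause of these shifts was not tested, beyond the smaller or larger number of genes each setting admits. The other 75 values stayed within 1.5 times of the count or within an interval of the share or median taken over the members. That interval treats genes as independent and holds no error between libraries, so it is only a working limit. By this limit the share highest in root, 22.2% as deposited and 33.3% with trimmed means, counted as unmoved. Among the named genes, 9 of 19 differences moved beyond their interval bounds with a pseudocount of 0.1 and 5 of 19 with 0.5. Their sign cannot change with the pseudocount. Trimmed means shifted leaf by -0.19 on the log2 scale. Members resting on few fragments in leaf are limited by counting error, so their drop is known no better than the width of the deposited interval. That width leaves out any error between libraries, and for genes listed at 0 in leaf it understates even the counting error.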
